A study of Homo sapiens with 6 samples.

Results

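The 9 genes described here encode receptor chains, kinases and transcription factors of the interferon pathway: IFNGR1, IFNGR2, IFNAR1, JAK1, JAK2, STAT2, IRF1, IRF2 and IRF9. They were taken by name from the 28395 gene IDs counted in each library, and all 9 were among the 16381 genes with enough reads to test. Total RNA was sequenced from A375, an established human melanoma line with an activating BRAF mutation, in 6 libraries that form 3 groups of 2. The groups are cells kept for 72 h in 0.01% DMSO, in 1 µM palbociclib, an inhibitor of the cell cycle kinases CDK4 and CDK6, or in 500 nM GSK3326595, which blocks PRMT5, an enzyme that methylates arginine residues. The labels do not say whether the inhibitor cultures also held DMSO. They number 2 replicates a group without saying that these came from separate cultures, so the p-values measure the spread between libraries, which may be technical.

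Interferons alpha and beta bind a receptor of 2 chains, IFNAR1 and IFNAR2, whose kinases JAK1 and TYK2 phosphorylate STAT2. STAT2 acts with IRF9 in the complex ISGF3, which binds interferon-stimulated response elements (ISRE). Interferon gamma binds IFNGR1 and IFNGR2, which signal through JAK1 and JAK2 to gamma-activated sites (GAS) in promoters such as that of IRF1. In melanoma the pathway is known for raising antigen presentation, and loss of JAK1 or JAK2 has been described in tumours that escape checkpoint therapy.

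Total counts per library ran from 16589153 to 20842099. Of 8 melanocyte-lineage markers, MITF (57.4 to 87.4 CPM) and SOX10 (122 to 237 CPM) were well above the others. The pigment gene TYR had 1 read in 1 library, and DCT was at 0 in both DMSO libraries. CPM (counts per 1000000) is a gene's count relative to the library's total, scaled by TMM. Of 7 blood cell markers, PTPRC and CD3E had at most 2 reads in any library, while CD68 made up most of the summed level. That sum was 89.7 to 97.0 CPM in DMSO, 83.4 to 91.2 in palbociclib and 71.6 to 74.4 in GSK3326595. LYZ, the lysozyme gene, was higher with palbociclib (4.58 ± 0.071 CPM in DMSO and 13.8 ± 0.336 in palbociclib, SD, n = 2; edgeR adjusted p = 0.000168), and so was the melanoma marker S100B (3.40 ± 0.394 and 10.8 ± 0.204 CPM; 3.15e-05). Of 5 epithelial markers tested, 2 were higher with palbociclib (KRT14, 2.05 ± 0.0999 and 7.43 ± 1.31 CPM; DSP, 39.4 ± 3.25 and 66.6 ± 4.09 CPM) and 1 was lower, KRT8. Of 6 markers of fibroblasts and endothelium tested, 2 were higher (KDR, 0.245 ± 0.126 and 3.18 ± 0.468 CPM; LUM, 1.64 ± 0.0342 and 7.04 ± 0.173 CPM) and 2 lower, PDGFRB and PECAM1. With GSK3326595, MITF and KDR were higher and CD68 lower, and no epithelial marker was called. When the replicate number entered that fit as a block, 1 epithelial marker was called higher. The block called 1 melanoma marker higher and 1 lower, and 2 fibroblast and endothelial markers higher and 1 lower. CD68 was also lower with palbociclib (edgeR adjusted p = 0.0239), which was lost without any 1 of the DMSO or palbociclib libraries (up to 0.244), and with GSK3326595 its call was lost without DMSO replicate 1 (0.0539). With palbociclib, the PECAM1 call was lost without any 1 of those 4 libraries (up to 0.227), that on PDGFRB without DMSO replicate 1 (0.0812) or palbociclib replicate 2 (0.084), and that on KRT8 without DMSO replicate 2 (0.0742) or either palbociclib library (0.0737 and 0.051). The summed levels of the epithelial list (672 to 829 CPM, mostly KRT8 and KRT18) and of the fibroblast and endothelial list (28.7 to 36.8 CPM) overlapped between the groups. All 5 markers of cycling cells fell with both inhibitors: their summed level was 1710 to 1875 CPM in DMSO, 568 to 635 in palbociclib and 1007 to 1027 in GSK3326595, and the part of these marker changes in the results on the 9 genes was not tested.

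The start sites of the genes were searched for the binding motifs of their own pathway, because STAT2, IRF9 and IFNAR1 rose together in palbociclib. RefSeq promoter windows (GRCh38.p14) were matched for 8 of the 9 genes, and the 250 bases before each start site were read on both strands for GAS, spelled TTCNNNGAA, and for an ISRE core, spelled GAAA, any 2 bases, GAAA. The 8 genes hold 15 windows, since a gene can have several start sites. GAS was found in 2 of the 15, 1 each of IRF1 and IRF9, and in 6.57% of all 35116 promoter windows. The ISRE core was found in none of the 15 and in 3.02% of all windows. A match describes these letters and no binding was measured. The IRF9 window lies in annotated exons of IRF9 and of the overlapping gene model AL136295.5 (GENCODE v29), with no exon-free stretch. The IRF1 match lies in a stretch free of annotated exons. The GAS matches are shown in capitals within 29 bases, for IRF1 on the minus strand at chr5:132490879-132490907 (bases 124 to 116 before the start site) and for IRF9 on the plus strand at chr14:24161192-24161220 (bases 63 to 55 before it).
IRF1: acagcctgatTTCCCCGAAatgacggcac
IRF9: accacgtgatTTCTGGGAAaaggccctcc
The upstream stretches of STAT2 and IFNAR1, the other genes called higher with palbociclib, follow in lower case because neither motif was found in them. That of STAT2 lies on the minus strand at chr12:56360156-56360357, 250 to 49 bases before the start site, and that of IFNAR1 on the plus strand at chr21:33324145-33324394, 250 to 1 bases before the first of its 2 start sites in RefSeq.
STAT2: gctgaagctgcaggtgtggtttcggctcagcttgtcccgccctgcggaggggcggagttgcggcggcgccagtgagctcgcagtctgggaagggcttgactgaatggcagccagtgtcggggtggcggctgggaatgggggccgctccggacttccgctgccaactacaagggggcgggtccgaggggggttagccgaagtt
IFNAR1: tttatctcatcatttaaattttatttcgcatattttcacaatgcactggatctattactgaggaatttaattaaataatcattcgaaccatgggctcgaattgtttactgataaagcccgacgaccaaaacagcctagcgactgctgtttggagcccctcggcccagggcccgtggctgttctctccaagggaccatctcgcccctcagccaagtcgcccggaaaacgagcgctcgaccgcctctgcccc

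With palbociclib, 3 of the 9 genes rose and none fell, beside 19.3% of all genes tested higher and 20.2% lower. IRF9 and STAT2, which act together in ISGF3, rose 1.84-fold and 1.63-fold, and the receptor chain IFNAR1 rose 1.24-fold. With GSK3326595 none of the 9 passed the test, beside 18.8% of all genes tested. STAT2 and JAK2 were called lower there when the replicate number entered the fit as a block, beside 35.2% of all genes called. Directly compared, 5 of the 9 were higher in palbociclib than in GSK3326595: STAT2, IRF9, JAK2, JAK1 and IFNAR1. In that comparison 16.6% of all genes tested were higher and 18.2% lower. Both receptor chains for interferon gamma, and IRF1 and IRF2, passed in none of the 3 comparisons. In bulk RNA, a change in the share of cells that express a gene and a change in RNA per cell cannot be told apart.

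**Figure D1:**
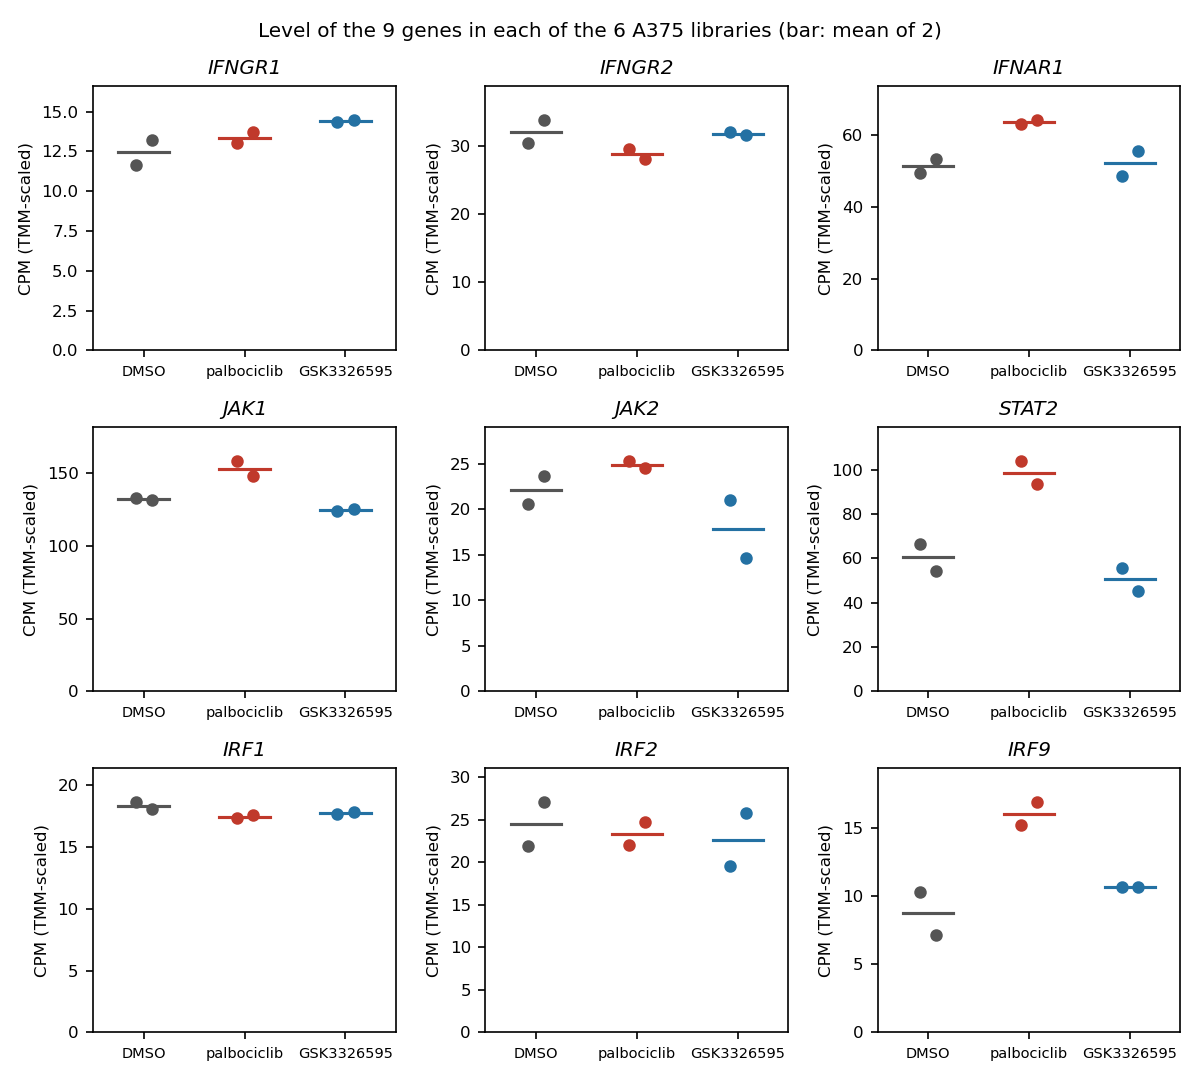
Level of each of the 9 genes in CPM (vertical axes start at 0) in DMSO, palbociclib and GSK3326595, with 1 point per library and a bar at the mean of 2. STAT2 and IRF9 stand above DMSO in both palbociclib libraries, at 93.4 to 104 and 15.3 to 16.9 CPM, while IRF1 keeps between 17.3 and 18.6 CPM throughout.

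A gene was called where edgeR's quasi-likelihood test gave a Benjamini-Hochberg adjusted p under 0.05 over all 16381 genes. In palbociclib against DMSO that call was made for 39.5% of all genes tested, with 19.3% of all genes higher and 20.2% lower, beside 33.3% of the 9 genes, all higher; the share of the 9 was close to that of genes at large. In GSK3326595 against DMSO it was made for 18.8% of all genes, with 8.58% higher and 10.2% lower, and for 0 of the 9. There edgeR gave 0 of the 9 an unadjusted p under 0.05 (the lowest was 0.0612), and DESeq2 also called 0. With the replicate number as a block, 35.2% of all genes and 2 of the 9 were called in that comparison. That fit is given here where it changes a call on the 9 genes, because same-numbered libraries deviated together. In palbociclib against GSK3326595 the call was made for 34.8% of all genes, with 16.6% higher and 18.2% lower in palbociclib, beside 55.6% of the 9, all higher. The median log2 fold change of the 9 was 0.17, -0.05 and 0.28 in the 3 comparisons, and that of all genes tested was -0.02, -0.00 and -0.03. The 2 comparisons with DMSO share their control libraries.

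IFNAR1 (Gene ID 3454, chr21:33324395-33359864, plus strand, GRCh38) is the chain of the alpha and beta receptor that holds TYK2. Its level was 49.5 and 53.6 CPM in DMSO, 63.1 and 64.2 CPM in palbociclib, and 48.7 and 55.8 CPM in GSK3326595. Both palbociclib libraries stood above all 4 others, and GSK3326595 spanned the DMSO values. The log2 fold change in palbociclib against DMSO was 0.30 ± 0.0966 (SE; 95% interval 0.09 to 0.52; edgeR adjusted p = 0.025). In palbociclib against GSK3326595 it was 0.28 ± 0.0969 (edgeR adjusted p = 0.0387), and in GSK3326595 against DMSO it was 0.02 ± 0.0978 (interval -0.19 to 0.23). With any 1 library left out, IFNAR1's log2 fold change in palbociclib was 0.25 to 0.38 against DMSO and 0.20 to 0.39 against GSK3326595. Both calls on IFNAR1 were lost in some of these fits. The first was lost without DMSO replicate 1 (edgeR adjusted p = 0.172), palbociclib replicate 1 (0.0989) or palbociclib replicate 2 (0.132). The second was lost without GSK3326595 replicate 1 (0.213), palbociclib replicate 1 (0.141) or palbociclib replicate 2 (0.175), and also in DESeq2 (0.0592) and without a filter on low counts (0.0639).

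IFNGR1 (Gene ID 3459, chr6:137197484-137219385, minus strand) is the chain that binds interferon gamma. It stood at 11.7 and 13.2 CPM in DMSO, 13.1 and 13.7 CPM in palbociclib, and 14.3 and 14.4 CPM in GSK3326595. The palbociclib and DMSO values overlapped, and both GSK3326595 libraries lay above all others. Its log2 fold change was 0.10 (95% interval -0.18 to 0.39) with palbociclib and 0.21 (-0.08 to 0.50) with GSK3326595, and neither was called (edgeR adjusted p = 0.562 and 0.3).

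IFNGR2 (Gene ID 3460, chr21:33402882-33437516, plus strand) is the chain of the gamma receptor that holds JAK2. Its level was 30.5 and 33.7 CPM in DMSO, 29.6 and 28.2 CPM in palbociclib, and 32.0 and 31.6 CPM in GSK3326595. The palbociclib libraries were the lowest pair and GSK3326595 lay within the DMSO range. Its log2 fold change was -0.15 (95% interval -0.38 to 0.07) with palbociclib and -0.01 (-0.24 to 0.21) with GSK3326595, and neither was called (edgeR adjusted p = 0.252 and 0.942). In GENCODE v29 the gene shares 380 exon bases with TMEM50B on the opposite strand. The strand setting of the counting is not given in the sources used here, and TMEM50B was not called in any comparison.

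JAK1 (Gene ID 3716, chr1:64833229-65067746, minus strand), the kinase that both receptors use, had the most reads of the 9 genes. It stood at 133 and 132 CPM in DMSO, 158 and 148 CPM in palbociclib, and 124 and 126 CPM in GSK3326595. The 3 groups did not overlap: palbociclib was highest and GSK3326595 lowest. Against DMSO the log2 fold change with palbociclib was 0.21 ± 0.0793 (95% interval 0.04 to 0.38) and missed the threshold (edgeR adjusted p = 0.0527). It passed in 6 of 13 other settings, among them scaling by library totals (0.0408) leaving out GSK3326595 replicate 2 (0.0498) and the replicate block (0.00645). With GSK3326595 the log2 fold change was -0.08 (interval -0.26 to 0.09, edgeR adjusted p = 0.517). Between the inhibitors JAK1 was higher in palbociclib by 0.29 ± 0.0796 on the log2 scale (edgeR adjusted p = 0.0138). This call was lost without palbociclib replicate 1 (0.154) or palbociclib replicate 2 (0.0508).

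JAK2 (Gene ID 3717, chr9:4984390-5129948, plus strand) serves the gamma receptor. Its level was 20.5 and 23.7 CPM in DMSO, 25.2 and 24.5 CPM in palbociclib, and 21.0 and 14.7 CPM in GSK3326595. GSK3326595 replicate 2 stood apart below the 5 other libraries, while replicate 1 lay within the DMSO range. For JAK2 the log2 fold change was 0.17 (95% interval -0.15 to 0.50) with palbociclib and -0.31 (-0.64 to 0.03) with GSK3326595, and neither was called (edgeR adjusted p = 0.388 and 0.188). Without GSK3326595 replicate 1, JAK2 was called lower in the remaining library of that group than in DMSO (log2 fold change -0.59, edgeR adjusted p = 0.00998), and without GSK3326595 replicate 2 the value was -0.07 (0.797). With the replicate number as a block JAK2 was called lower (-0.32, edgeR adjusted p = 0.0307). Between the inhibitors JAK2 was higher in palbociclib by 0.48 ± 0.152 (edgeR adjusted p = 0.0289). That value became 0.24 without GSK3326595 replicate 2 (edgeR adjusted p = 0.217). The call was also lost without palbociclib replicate 1 (0.112) or palbociclib replicate 2 (0.0858), and with library totals (0.059).

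STAT2 (Gene ID 6773, chr12:56341597-56360107, minus strand) brings the activation domain to ISGF3. It stood at 66.6 and 54.2 CPM in DMSO, 104 and 93.4 CPM in palbociclib, and 55.8 and 45.5 CPM in GSK3326595. Both palbociclib libraries lay above the 4 others, and GSK3326595 overlapped DMSO at the lower end. With palbociclib the log2 fold change was 0.71 ± 0.12 (95% interval 0.45 to 0.97; edgeR adjusted p = 0.000653). All 13 other settings called it, at values of 0.59 to 0.86 and adjusted p up to 0.00841. With GSK3326595 the log2 fold change was -0.25 ± 0.123 (interval -0.52 to 0.01; edgeR adjusted p = 0.175). Without GSK3326595 replicate 1 it became -0.41 and was called lower (edgeR adjusted p = 0.0321), and it was -0.11 without GSK3326595 replicate 2 (0.614) and -0.12 without DMSO replicate 1 (0.627). With the replicate number as a block STAT2 was called lower (-0.25, edgeR adjusted p = 0.00664). Between the inhibitors STAT2 was 1.94-fold higher in palbociclib (log2 fold change 0.96 ± 0.121, edgeR adjusted p = 0.000128), a call made in all 13 other settings.

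IRF9 (Gene ID 10379, chr14:24161265-24166565, plus strand) is the DNA-binding subunit of ISGF3. Its level was 10.3 and 7.18 CPM in DMSO, 15.3 and 16.9 CPM in palbociclib, and 10.7 and 10.7 CPM in GSK3326595. Palbociclib lay well above both other groups, the GSK3326595 libraries were just above the higher DMSO library, and the DMSO libraries differed most from each other. With palbociclib the log2 fold change was 0.88 ± 0.169 (95% interval 0.51 to 1.25; edgeR adjusted p = 0.00148). All 13 other settings called it, at values of 0.66 to 1.16 and adjusted p up to 0.0169. With GSK3326595 it was 0.29 ± 0.176 (interval -0.10 to 0.67; edgeR adjusted p = 0.283). Between the inhibitors IRF9 was 1.51-fold higher in palbociclib (log2 fold change 0.59 ± 0.167, edgeR adjusted p = 0.0161). This call was lost without palbociclib replicate 2 (0.113).

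The reads given to IRF9 may include those of an overlapping gene model. Of its exon bases in GENCODE v29, 48.4% (1838 of 3794) also belong to AL136295.5 on the same strand. IRF9 transcripts that carry a RefSeq accession also span 1838 exon bases, so all of these may be shared. Whether they are the same bases was not tested. The gene just before it on that strand is RNF31, a ubiquitin ligase subunit. RNF31 stood at 49.7 and 52.6 CPM in DMSO, 61.9 and 66.1 in palbociclib, and 47.6 and 46.8 in GSK3326595, so that both palbociclib libraries were the highest here as well. Its log2 fold change with palbociclib was 0.32 ± 0.0893 (edgeR adjusted p = 0.0128), against 0.88 for IRF9, and was lost without DMSO replicate 1 (0.101) or palbociclib replicate 2 (0.13). How reads in the shared bases were assigned was not tested.

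IRF1 (Gene ID 3659, chr5:132481609-132490773, minus strand) is an activator that interferon gamma induces. Its level was 18.6 and 18.1 CPM in DMSO, 17.3 and 17.5 CPM in palbociclib, and 17.7 and 17.8 CPM in GSK3326595. The groups did not overlap, DMSO being highest, yet the 6 libraries lay close together. For IRF1 the log2 fold change was -0.07 (95% interval -0.31 to 0.17) with palbociclib and -0.05 (-0.29 to 0.20) with GSK3326595, and neither was called (edgeR adjusted p = 0.64 and 0.806). In GENCODE v29 the gene shares 1716 exon bases (22%) with an antisense transcript, C5orf56 or CARINH. It also shares 469 (6.01%) with AC116366.3, a protein-coding model on the opposite strand. Without a known strand setting, reads of these genes in the shared bases cannot be told apart. CARINH itself was counted at 0.673 to 1.77 CPM and was called lower with palbociclib (log2 fold change -1.001, edgeR adjusted p = 0.0428). It did not hold in 7 of 13 other settings, among them leaving out any 1 of the DMSO libraries (0.0769 and 0.192) or palbociclib libraries (0.087 and 0.28).

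IRF2 (Gene ID 3660, chr4:184387729-184474550, minus strand) binds the same elements as IRF1 and can oppose it. It stood at 21.9 and 27.0 CPM in DMSO, 22.0 and 24.7 CPM in palbociclib, and 19.5 and 25.8 CPM in GSK3326595. All 3 groups overlapped, and the 2 libraries within each group lay further apart than the group means did. The log2 fold change was -0.07 (95% interval -0.39 to 0.25) with palbociclib and -0.11 (-0.43 to 0.21) with GSK3326595, with edgeR adjusted p of 0.752 and 0.651.

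**Figure D2:**
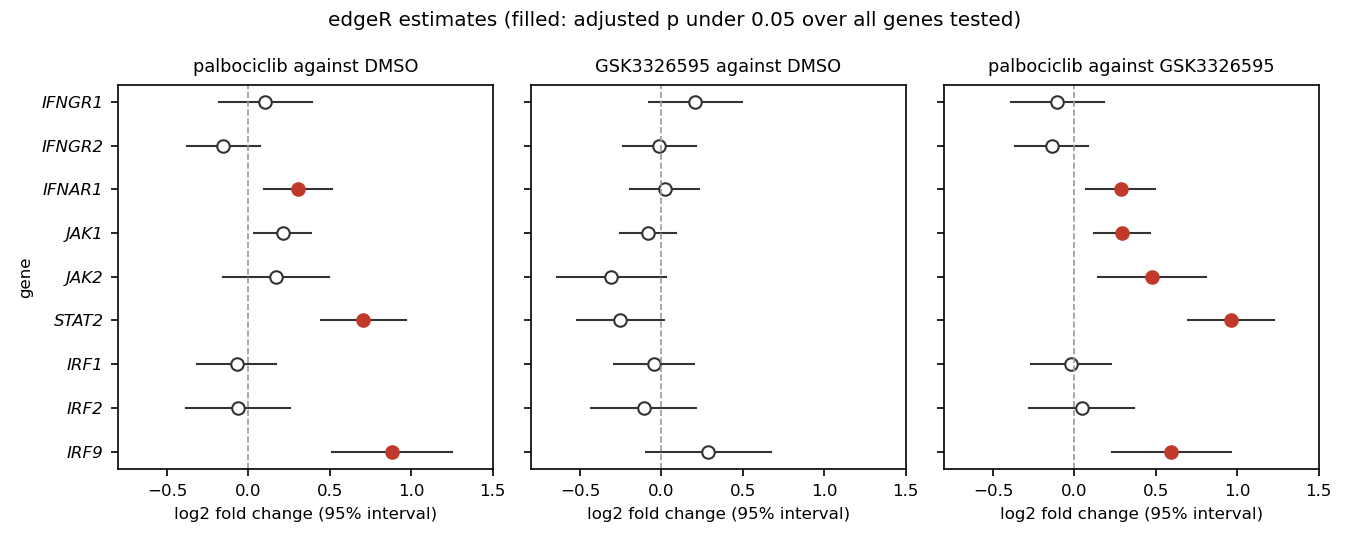
The log2 fold change of each of the 9 genes (points) with its 95% interval (lines) in the 3 comparisons, with filled points where the adjusted p was under 0.05. In palbociclib against DMSO the filled points are IFNAR1 (0.30), STAT2 (0.71) and IRF9 (0.88), in GSK3326595 against DMSO there are none, and in palbociclib against GSK3326595 JAK1 (0.29) and JAK2 (0.48) join them.

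Non-overlap of 2 against 2 libraries was common. It held for 7 of the 9 genes in palbociclib against DMSO (77.8%, beside 72.5% of all genes tested). In GSK3326595 against DMSO it held for 4 of the 9 (44.4%, beside 57.3%), and in palbociclib against GSK3326595 for 8 of the 9 (88.9%, beside 67.4%).

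Levels were compared between genes as RPKM, which is CPM per kilobase of exon in GENCODE transcripts that carry a RefSeq accession. In DMSO the order was JAK1 (26.2 RPKM), STAT2 (18.2), IFNGR2 (14.5), IRF2 (10.6), IFNAR1 (8.39), IRF1 (5.12), IRF9 (4.76), IFNGR1 (4.41) and JAK2 (4.18). The libraries of IRF1 and IRF9, of IRF9 and IFNGR1, and of IFNGR1 and JAK2 overlapped, and every other gene lay above the next in both libraries. Thus the gamma receptor's chains stood apart, IFNGR2 above IFNGR1, and so did its kinases, JAK1 above JAK2. In palbociclib STAT2 (29.8 ± 2.21 RPKM, SD, n = 2) overlapped JAK1 (30.3 ± 1.42), and IFNAR1 (10.4) overlapped IRF2 (10.1). IRF9 (8.76) stood clear above IRF1 (4.87), which it had overlapped in DMSO. IRF1, IFNGR1 (4.74) and JAK2 (4.71) overlapped their neighbours at the bottom of the order. In GSK3326595 STAT2 (15.3) overlapped IFNGR2 (14.3), IRF2 (9.84) overlapped IFNAR1 (8.51), and IRF9 (5.80), IFNGR1 (5.10), IRF1 (4.95) and JAK2 (3.38) followed without overlap.

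**Figure D3:**
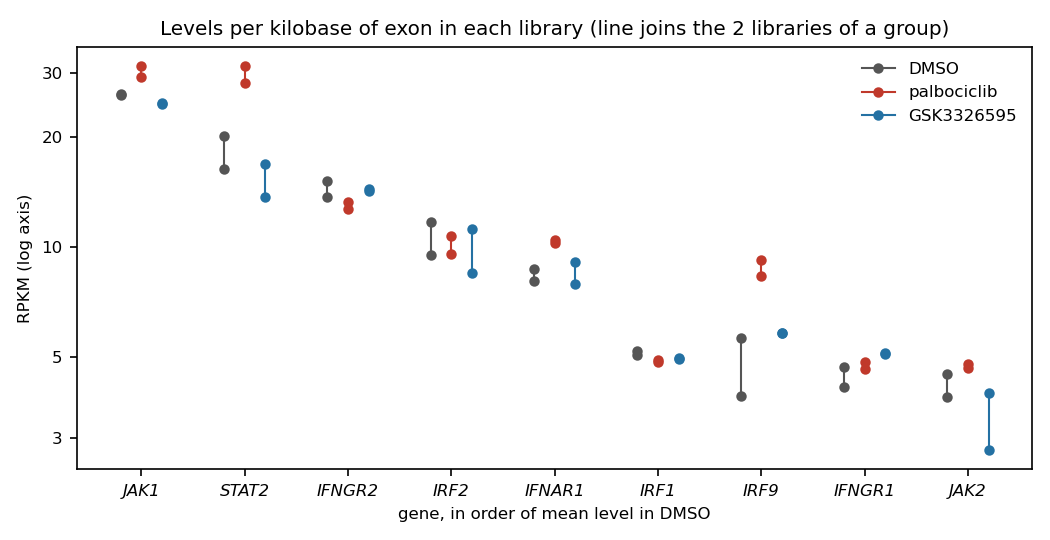
Level of each gene in RPKM (log axis) in each library, with a line joining the 2 libraries of a group and genes in order of their mean in DMSO. STAT2 lies below JAK1 in DMSO (18.2 against 26.2 RPKM) and level with it in palbociclib (29.8 against 30.3 RPKM).

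Of all genes tested, 19.3% were called higher and 20.2% lower with palbociclib, and 8.58% and 10.2% with GSK3326595. The counts for the lists here and below were not tested against these shares. Of the other receptor chains, kinases, STATs and IRFs, 14 of 17 were tested. With palbociclib 7 rose, 1 fell and 6 were not called, with a median log2 fold change of 0.42. Among them STAT3, which carries signals of the interleukin-6 family, rose by 0.48 (edgeR adjusted p = 0.000928) and STAT4, a factor best known from lymphocytes, by 1.12 from a mean of 1.94 CPM (0.004). IFNLR1, the specific chain of the interferon lambda receptor, fell by 0.55 (0.00638), which was lost without DMSO replicate 2 (0.0648) or palbociclib replicate 2 (0.0539). With GSK3326595 4 rose (STAT3, STAT4, STAT5A and IRF5), none fell and the median was 0.04. The calls on STAT4 and IRF5 were each lost in 8 of 13 other settings and that on STAT5A in 10. With any 1 library left out, 0 or 1 of the 14 rose; with the replicate block 5 rose and 2 fell. The STAT3 rise of 0.32 (edgeR adjusted p = 0.0215) was lost without DMSO replicate 1 (0.101), DMSO replicate 2 (0.123) or GSK3326595 replicate 2 (0.143). Among 17 brakes on JAK-STAT signalling, 1 rose and 2 fell with palbociclib (median -0.17), or 3 and 5 with the replicate block. PIAS3 rose by 0.24 (edgeR adjusted p = 0.047), a call lost in 7 of 13 other settings. SOCS3, a feedback inhibitor of Janus kinases, fell by 0.59 (edgeR adjusted p = 0.000798), and CISH, another SOCS family member, fell by 1.27 (0.00616), which was lost without palbociclib replicate 2 (0.0751). With GSK3326595 1 brake rose and none fell (median -0.02), or 2 and 3 with the replicate block. The phosphatase PTPN1 rose by 0.32 (edgeR adjusted p = 0.0214), which did not hold without DMSO replicate 1 (0.183), DMSO replicate 2 (0.0672) or GSK3326595 replicate 2 (0.0804).

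Few interferon genes were detected. Of 10, the 2 with enough reads to test were IFNE and IFNA1, and neither was called against DMSO. IFNE, a type I interferon best known from epithelia of the reproductive tract, had 24 to 65 reads in every library: 2.01 and 2.65 CPM in DMSO, 1.83 and 3.12 in palbociclib, and 1.57 and 1.40 in GSK3326595. The palbociclib libraries spanned the DMSO values and both GSK3326595 libraries were below them (edgeR adjusted p = 0.85 and 0.215). IFNG, IFNA2, IFNW1, IFNL2 and IFNL3 had no read in any library, and IFNB1 had at most 1. IFNA1, whose family members are near-identical in sequence, had 22 and 15 reads in palbociclib and 4 and 5 in GSK3326595. Between the inhibitors its log2 fold change was 1.78 (edgeR adjusted p = 0.0215). This call was lost in DESeq2 (0.105) and without GSK3326595 replicate 1 (0.0908), GSK3326595 replicate 2 (0.0589) or palbociclib replicate 1 (0.172). Of 11 sensors and adaptors that lie before interferon production, 9 were tested, and with palbociclib 3 rose and 1 fell (median 0.35). RIGI, a sensor of viral RNA, had 6.93 ± 0.3 CPM (SD, n = 2) in DMSO and 15.7 ± 2.09 in palbociclib. It rose by 1.18 on the log2 scale (edgeR adjusted p = 9.48e-05), its adaptor MAVS by 0.57 (0.000349) and the kinase IKBKE by 0.74 (0.00014). STING1, the adaptor of DNA sensing, fell by 0.58 with palbociclib (0.00348) and by 0.64 with GSK3326595 (0.00538). With GSK3326595 2 of these 9 rose and 1 fell (median 0.12), or 2 and 2 with the replicate block. The calls on TLR3 and IKBKE, the 2 that rose, were lost in 9 and 3 of 13 other settings, among them leaving out DMSO replicate 1 (0.161 and 0.102), DMSO replicate 2 (0.141 and 0.0653) or GSK3326595 replicate 1 (0.0665 and 0.0578).

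Targets of ISGF3 did not move one way. Of 30 tested, 10 rose, 6 fell and 14 were not called with palbociclib (median 0.16), beside 19.3% higher and 20.2% lower of all genes tested. ISG15, a ubiquitin-like modifier, rose by 1.02 (edgeR adjusted p = 9.47e-05), OAS2, a synthetase that activates RNase L, by 0.98 (0.000176) and IFIT2, which binds RNA, by 0.94 (0.000479). Among those that fell were the related OAS3 (by 0.54, edgeR adjusted p = 0.000273), the RNA-activated kinase EIF2AK2 (by 0.55, 0.000764) and the helicase-like DDX60 (by 0.74, 0.00299). With GSK3326595 1 of the 30 rose, 2 fell and 27 were not called (median -0.09), while the replicate block called 6 higher and 5 lower. ISG15 rose by 0.83 (edgeR adjusted p = 0.0015), and OAS3 and IFI35 fell by 0.48 and 0.70 (0.00184 and 0.000836). IFI35 moved the other way with palbociclib, rising by 0.49 (0.00208), and the difference between the inhibitors was 1.20 (edgeR adjusted p = 1.27e-05).

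Of 15 tested targets of interferon gamma and IRF1, 6 rose, 1 fell and 8 were not called with palbociclib (median 0.20). CIITA, the master regulator of MHC class II genes, had 13.2 ± 1.21 CPM (SD, n = 2) in DMSO and 38.3 ± 4.99 in palbociclib. It rose by 1.54 on the log2 scale (edgeR adjusted p = 2.54e-06), the GTPase GBP2 by 1.39 (0.00076), the adhesion molecule ICAM1 by 0.70 (0.000161) and the peptide transporter TAP1 by 0.67 (0.000397). CD274, which encodes PD-L1, fell by 0.75 (edgeR adjusted p = 0.0188), lost without DMSO replicate 2 (0.0933) or palbociclib replicate 2 (0.148). With GSK3326595 3 rose, 1 fell and 11 were not called (median 0.19), while the replicate block called 4 higher and 1 lower. There CD274 rose by 0.91 (edgeR adjusted p = 0.00965), lost without DMSO replicate 1 (0.0547), and ICAM1 rose by 0.57 (0.00225). The direct comparison gave CD274 as lower in palbociclib than in GSK3326595 by a log2 fold change of -1.66 (edgeR adjusted p = 0.000144), a call made in all 13 other settings.

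**Figure D4:**
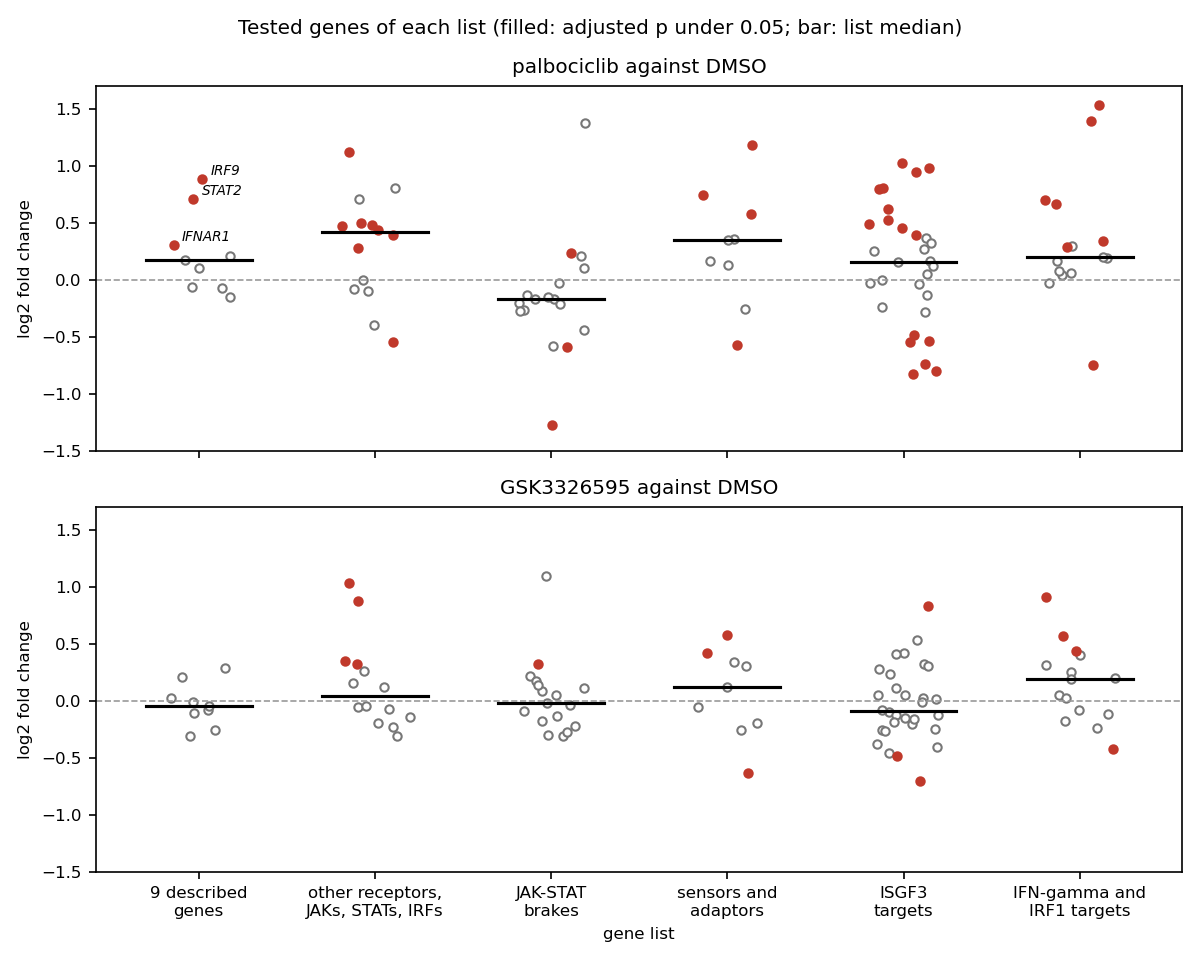
The log2 fold change of every tested gene of 6 lists with palbociclib (upper panel) and GSK3326595 (lower panel) against DMSO; filled points had an adjusted p under 0.05 and bars mark list medians. The ISGF3 targets hold 10 genes that rose and 6 that fell with palbociclib, against 1 and 2 with GSK3326595 (fit without a replicate block).

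The genes whose pattern was most like that of IRF9, the gene of the 9 with the largest called change in palbociclib against DMSO, were RUNDC1 (Pearson r = 0.997), VCAN (0.996) and MIGA2 (0.995), of 13260 candidates. Of the candidates, 174 had an r over 0.95. These are descriptions of log2 CPM over 6 libraries that fall into the same 3 groups.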

How the data were processed

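For each of the 6 libraries a table of unnormalized read counts by gene ID was deposited by the authors. The submitters' processing notes name genome build hg38 and the tools featureCounts 1.6.2, HISAT2, cutadapt 1.7, limma and CASAVA 1.8.2. Per the labels' protocols, ribosomal RNA was depleted before library preparation. Not given in the sources used here are the annotation, the strand setting and how multi-mapping reads were treated. RefSeq symbols (GRCh38) matched 27745 of 28395 IDs; the 650 others held 0.233% to 0.508% of a library's counts and stayed in the totals.

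Counts were tested with edgeR 4.0.16 in R 4.3.3: filterByExpr (minimum count 10), TMM scaling, and a quasi-likelihood fit of 3 group means to all 6 libraries (3 residual degrees of freedom), with two-sided F tests and Benjamini-Hochberg adjustment over 16381 genes. The SE was approximated as the size of a log2 fold change over the root of its F. Fold changes of named genes outside the 9 are also log2 values from this fit, and a p in brackets is its adjusted p. The scripts were tested on simulated data. Replicates differed by more than counting noise (chi-square per degree of freedom 5.48 to 10.7), so none were merged.

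The 9 genes and the other lists were chosen with earlier results of these data known. All 9 are named; genes of other lists are named among those called. IFI35 is shown for its opposite directions, and RNF31, TMEM50B and CARINH as neighbours, and these were chosen after their values were seen. The genes most like IRF9 had the highest Pearson r of log2 CPM (prior count 2) at a mean of at least 2 CPM. The labels number replicates 1 and 2 in each group without saying that a number marks a shared culture or day. Deviations of same-numbered libraries from their group means correlated across genes at 0.179, 0.341 and 0.14 for the 3 pairs of groups. A fit with the number as a block is therefore given beside changed calls on the 9 genes and beside some list counts. For other genes and lists it is not given throughout. The pairing comes from the data and not from the design. Alternatives were DESeq2 1.42.0, its size factors, library totals, other filters, a replicate block, the 4 libraries compared alone, and leaving out each library.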

Additional observations from a re-analysis of the deposited data

How the results depend on the processing

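The calls on the 9 genes, the counts of genes called and the log2 fold changes of most other named genes were recomputed under 13 alternatives (12 for IFNA1); the RPKM order, the likeness of patterns and the motif search were not. Of the calls on the 9 genes, those on STAT2 and IRF9 in palbociclib against DMSO and on STAT2 between the inhibitors held in all 13; the losses of the others are given beside them. With 1 library left out, the number of the 9 genes called was 2 to 4 in palbociclib against DMSO, 0 to 2 in GSK3326595 against DMSO and 1 to 5 between the inhibitors. The number of all genes called was then 4007 to 7259 (6470 with all libraries), 1765 to 3230 (3081) and 3312 to 5542 (5707). The lone library of a group was then assumed to vary like the others. Some log2 fold changes that were not called changed sign with 1 library left out. In GSK3326595 against DMSO, IFNAR1 ran from -0.0826 to 0.114, IFNGR2 from -0.112 to 0.0610 and IRF2 from -0.327 to 0.0758; IRF2 ran from -0.21 to 0.12 in palbociclib against DMSO and from -0.13 to 0.26 between the inhibitors. The cause was not tested. With the replicate number as a block, 8716, 5769 and 7913 genes were called in the 3 comparisons. Of the 9 genes the block called 4, 2 and 5: JAK1 was added in palbociclib against DMSO (edgeR adjusted p = 0.00645), and JAK2 (log2 fold change -0.32, 0.0307) and STAT2 (-0.25, 0.00664) were called lower in GSK3326595 against DMSO. It changed no other call on the 9 genes. With 2 libraries a group and IRF9 at 138 reads in its lowest library, smaller changes in genes that were not called may have been missed. JAK1 was not called in palbociclib against DMSO although its interval, 0.04 to 0.38, did not span 0. Whether depth or the spread between libraries set this limit was not tested.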
